A study of Homo sapiens with 4 samples.

Results

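The 10 genes examined were TAGLN, ACTA2, CNN1, MYL9, TPM1, TPM2, CALD1, ACTG2, MYLK and LMOD1, which encode proteins of the smooth muscle and myofibroblast contractile apparatus. They were listed by function around TAGLN, and TAGLN itself was chosen by its measured difference between FBP1 and control MDA-MB231 cells, an at least 2-fold higher value with FBP1. All 10 were found among the 18417 genes named on the array, each through a single probe set, and all 10 were among the 15946 genes whose mean log2 value reached the 25th percentile of probe set means (6.16). Each of the 10 lay above that level on all 4 arrays. TAGLN, at a log2 difference of 1.02, lay just inside the 2-fold limit, and the next member, ACTA2, lay outside it at 0.37.

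The arrays came from MDA-MB231 and Hs578T, established human breast cancer lines labelled as basal-like. Each line was hybridised as control cells and as stable clones expressing FBP1, the gluconeogenic enzyme fructose-1,6-bisphosphatase. The 4 groups (MDA-MB231 control, MDA-MB231 FBP1, Hs578T control and Hs578T FBP1) thus held 1 array each. All cells were grown in DMEM/F12 with 10% FBS and harvested in logarithmic growth. The labels do not say what the control cells carried, or whether an FBP1 array stands for 1 clone or several.

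Smooth muscle and myofibroblasts generate tension when a calcium signal activates myosin light chain kinase, which phosphorylates the regulatory light chain of myosin so that it pulls on actin filaments. Tropomyosin, caldesmon, calponin and transgelin bind those filaments and modulate or bundle them, and leiomodin promotes their assembly. Many of these genes share a serum response factor (SRF) site, the CArG box. SRF acts there with myocardin, found in smooth and cardiac muscle, or with the widely expressed myocardin-related factors, which respond to RhoA signalling and actin polymerisation. Expression of these genes is known in myoepithelial and fibroblast-like cells and in carcinoma lines with mesenchymal features.

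The CArG box was searched as CC, 6 bases of A or T, then GG, and promoter sequences are shown for the 2 members with a match. Sites that depart from this pattern or lie outside the stretches searched were not counted, so a member without a match may still hold such a site. RefSeq windows of 300 bases on GRCh38.p14, from 250 bases before to 50 after a transcript start, were held for 8 of the 10 members, as 13 windows because some genes have several starts. TAGLN and MYL9 were not analysed here. ACTG2 and MYLK held a match in 1 window each, among 454 of all 35116 windows (1.29%). In ACTG2, CCTTATATGG stood 110 to 101 bases before the start and CCTTTTTAGG 73 to 64 bases before it. In MYLK, CCTTTTATGG stood 94 to 85 bases before the start in the matched window. Which MYLK transcript begins there, and whether it encodes the kinase, was not examined, so the box is not placed at the kinase start. The 150 bases before each start are written 5′ to 3′ on the gene's strand with the CArG boxes in capitals, for ACTG2 at chr2:73892858-73893007 (plus strand) and for MYLK at chr3:123620549-123620698 (minus strand).
ACTG2: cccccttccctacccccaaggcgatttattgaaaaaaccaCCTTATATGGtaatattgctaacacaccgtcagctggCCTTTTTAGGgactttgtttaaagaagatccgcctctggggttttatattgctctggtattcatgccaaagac
MYLK: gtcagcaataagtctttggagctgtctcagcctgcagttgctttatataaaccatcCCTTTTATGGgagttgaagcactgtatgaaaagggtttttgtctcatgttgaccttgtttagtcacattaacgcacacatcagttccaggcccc
A match describes the letters and does not show that a factor binds. Other sequences were searched on both strands of the same windows. CATTCC, a TEAD factor motif, was matched in 4 of the 8 members, in 5 of their 13 windows and in 14% of all windows. The SP1 motif GGGCGG was matched in 6 members, 7 of the 13 windows and 45% of all windows. The E-box CANNTG was matched in 6 members, 6 of the 13 windows and 68.7% of all windows. TATAAA was matched in 3 members, 3 of the 13 windows and 11.5% of all windows. A member with several windows counted once, so only the window counts compare with the shares of all windows. Motifs were not kept from overlapping.

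Median log2 values over all 33297 probe sets ran from 7.83 to 7.86 over the 4 arrays. FBP1, the introduced gene, read 9.83 in control MDA-MB231 and 13.07 in the FBP1 array, and 6.35 and 13.35 in Hs578T, so its values were higher in the array labelled FBP1 in both lines. For the basal-like label, EGFR (10.63 to 11.05 over the 4 arrays), VIM (13.71 to 13.72) and CAV1 (13.66 to 13.92) were bright, while the basal keratin KRT5 (6.80 to 6.93) and the estrogen receptor gene ESR1 (6.64 to 6.80) lay near the filter level. ERBB2 read 8.63 to 9.14. Of 6 markers of the label tested, 1 was called between the lines in each direction, KRT14 toward Hs578T and CDH3 toward MDA-MB231. Of all genes, 19.0% were called toward Hs578T and 21.8% toward MDA-MB231. No group was replicated, so no within-line difference has an error, and the small number of arrays limits the precision of every value.

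TAGLN encodes transgelin (SM22), an actin-bundling protein used as an early marker of smooth muscle differentiation. Its log2 value was 7.79 in control MDA-MB231, 8.81 in MDA-MB231 with FBP1, 11.34 in control Hs578T and 11.59 in Hs578T with FBP1. Both Hs578T arrays lay above both MDA-MB231 arrays, and within each line the FBP1 array was the higher. The difference with FBP1 was 2.02-fold in MDA-MB231 and 1.19-fold in Hs578T. In MDA-MB231, 7 of 15946 genes, TAGLN and FBP1 included, differed upward by as much as TAGLN. In Hs578T, 1783 genes did so. The MDA-MB231 value of TAGLN is what chose it and is given as a description.

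The smooth muscle actin genes were next. ACTA2 encodes alpha smooth muscle actin, the usual marker of myofibroblasts, and read 8.41 in the MDA-MB231 control, 8.77 with FBP1, 12.35 in the Hs578T control and 12.56 with FBP1. The lines were far apart, and the FBP1 arrays were above their controls by 0.37 and 0.21 on the log2 scale. ACTG2, the gamma actin of enteric smooth muscle, read 13.02, 13.37, 13.38 and 13.75 in the same order of arrays. Its MDA-MB231 FBP1 array and its Hs578T control differed by 0.01, and the differences with FBP1 were close in size, 0.35 and 0.37. Actin genes are nearly identical in coding sequence, and the cytoplasmic actin gene ACTG1 (14.04 to 14.20 over the 4 arrays) is bright in both lines, so probes for ACTG2 and ACTA2 may also read other actins, and the values are uncertain to that extent.

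Among the genes for thin filament regulators, CNN1 and LMOD1 had the larger differences with FBP1 in Hs578T. CNN1 encodes calponin, which inhibits the myosin ATPase on actin, and read 8.08, 8.34, 9.20 and 9.94 from MDA-MB231 control to Hs578T with FBP1. It was 1.19-fold higher with FBP1 in MDA-MB231 and 1.66-fold higher in Hs578T, where 122 of 15946 genes had an increase as large. LMOD1 encodes leiomodin, the actin nucleator of smooth muscle, and read 6.78, 6.79, 7.86 and 8.55. The MDA-MB231 arrays were the dimmest values of any member and differed by 0.003, whereas the Hs578T FBP1 array was 1.61-fold above its control.

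The genes for tropomyosins and caldesmon, which line the filament and regulate myosin access, did not all lie on the higher side. TPM1 read 10.85 in the MDA-MB231 control, 11.18 with FBP1, 12.25 in the Hs578T control and 11.95 with FBP1. It was above control by 0.33 in MDA-MB231 and below it by 0.30 in Hs578T (log2 change −0.30). TPM2 read 8.97, 9.00, 12.46 and 12.61, a wide separation of the lines with differences of 0.03 and 0.15 within them. CALD1, which encodes caldesmon, read 11.08, 11.21, 12.35 and 12.26, above control by 0.13 in MDA-MB231 and at −0.09 in Hs578T. TPM1 and CALD1 were the members whose differences had opposite signs in the lines.

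The myosin side comprised the regulatory light chain and its kinase. MYL9, the smooth muscle regulatory light chain gene, read 11.73, 11.86, 12.42 and 12.45, with differences of 0.13 and 0.03. MYLK, which encodes myosin light chain kinase, read 9.29, 9.64, 9.71 and 9.89. With FBP1 it differed by 0.35 (MDA-MB231) and 0.18 (Hs578T). The highest MDA-MB231 array lay 0.07 below the lowest Hs578T array. MYLK was thus, with ACTG2, the member in which the lines came closest.

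**Figure D1:**
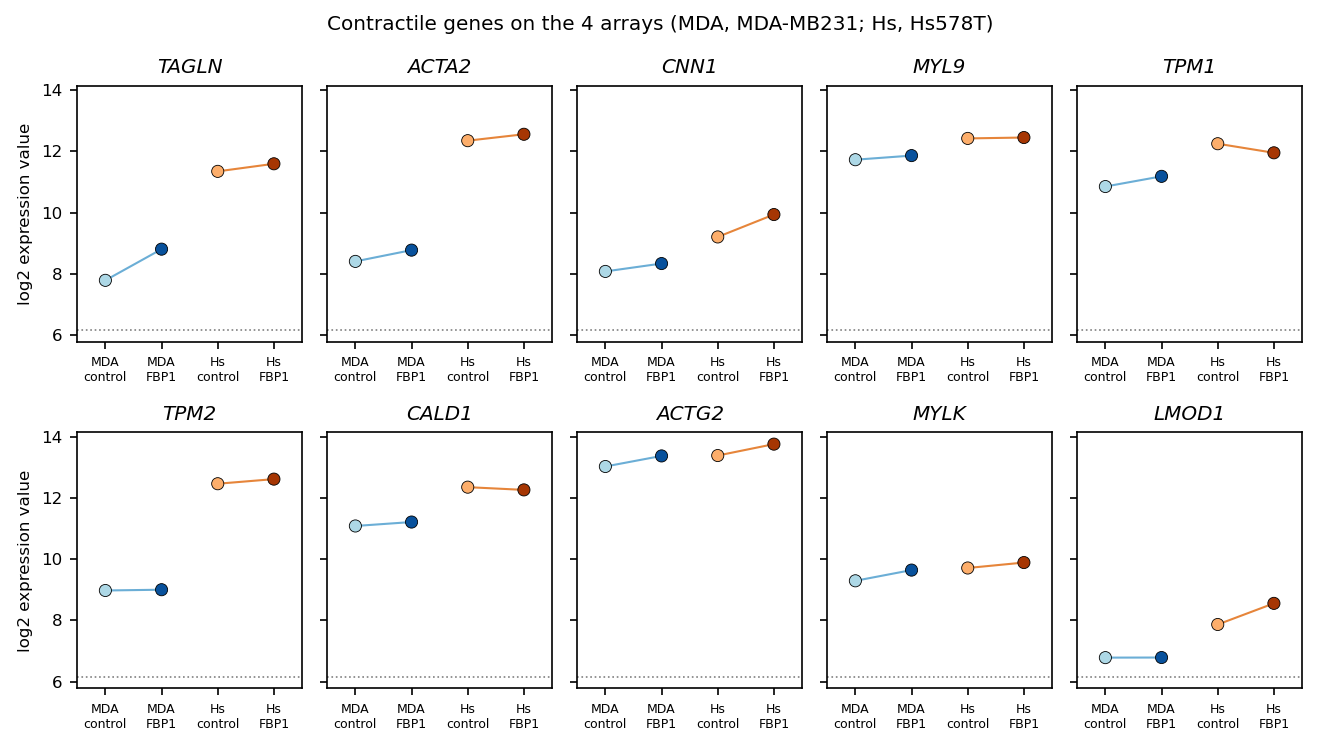
Log2 expression value (vertical axis) of each contractile gene on the 4 arrays (horizontal axis); points are single arrays, lines join the arrays of a line and the dotted line is the filter level of 6.16. In all 10 genes both Hs578T arrays lie above both MDA-MB231 arrays, with the widest gaps in ACTA2, TPM2 and TAGLN.

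Counted by size, 1 of the 10 members, TAGLN, was at least 1.5-fold higher with FBP1 in MDA-MB231, and 0 were at least 1.5-fold lower. Over all 15946 genes, 0.301% were that much higher and 0.326% that much lower. At 2-fold TAGLN was the 1 member counted, against 0.0439% of all genes. This contrast chose TAGLN, so nothing is read from these counts. In Hs578T 2 members, CNN1 and LMOD1, were at least 1.5-fold higher, against 1.39% of all genes, and 0 were that much lower, against 1.69%. At 2-fold no member was counted in Hs578T, where 0.288% of all genes were that much higher.

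Differences of any size were also counted by direction. All 10 members were above control in MDA-MB231, where 48.2% of all genes were, and 8 were above control in Hs578T, where 54.9% of all genes were. In both lines at once, 8 of 10 were above control, against 27.2% of all genes. In MDA-MB231 the median log2 difference of the members was 0.29, and in Hs578T it was 0.19, against −0.005 and 0.02 over all genes tested. The MDA-MB231 values, and those over both lines, include the contrast that chose TAGLN, and nothing is read from them. Most of these differences were small beside the 1.5-fold limit of 0.58, and members of a family can share probe signal. The limma model over both lines, with terms for line and construct, called 0 of 15946 genes for FBP1 at an adjusted p under 0.05 and 819 (5.14%) at an unadjusted p under 0.05. Its smallest adjusted p was 0.943, and the introduced gene FBP1 was itself not called.

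**Figure D2:**
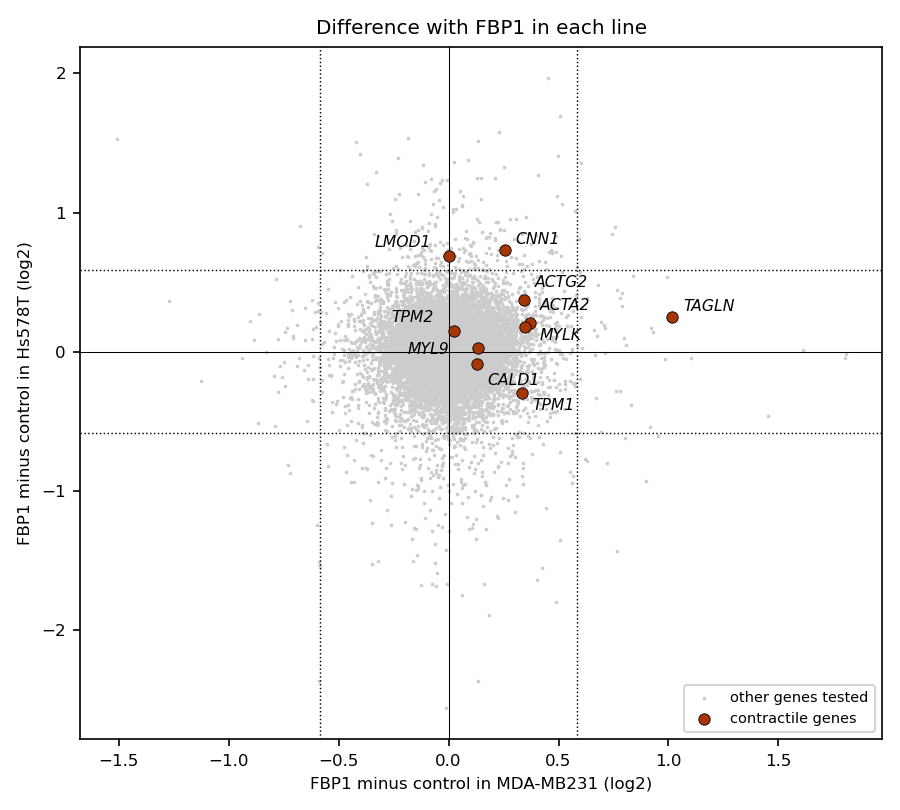
Difference between FBP1 and control arrays on the log2 scale in MDA-MB231 (horizontal axis) and Hs578T (vertical axis); grey points are the other genes tested with FBP1 left out, red points are the contractile genes, and dotted lines mark 1.5-fold. TAGLN lies beyond the limit in MDA-MB231, and CNN1 and LMOD1 in Hs578T, while TPM1 and CALD1 lie below 0 in Hs578T.

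The other arrays of the design allow a comparison of the lines, in which control and FBP1 arrays serve together. Line differences are given as Hs578T minus MDA-MB231 on the log2 scale. All 10 members were higher in Hs578T, and limma called all 10 at an adjusted p under 0.05, against 19.0% of all genes called higher in Hs578T; 21.8% of all genes, and 0 members, were called higher on the MDA-MB231 side. The p-values rest on 1 residual degree of freedom and measure how alike the line difference is in control and FBP1 arrays, not the spread of repeated cultures. The line difference was among the values named when the genes were chosen, so it is given as a description, and the count over members supports nothing further. In RNA from whole cultures, fewer cells that express a gene and less RNA per cell cannot be told apart.

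ACTA2 had the largest line difference of the 10, 14.5-fold higher in Hs578T (log2 difference 3.86, SE 0.10, limma adjusted p = 5.25e-06). TPM2 followed at 11.7-fold (3.55, SE 0.10, adjusted p = 5.62e-06). TAGLN was 9.01-fold higher in Hs578T (3.17, SE 0.19, adjusted p = 8.29e-05). These 3 genes exceeded 8-fold, a size that 0.916% of all genes reached. The TAGLN gap depended on the arrays compared, since it was 11.8-fold between the control arrays and 6.90-fold between the FBP1 arrays.

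A middle group differed by between 2-fold and 3-fold. LMOD1 was 2.68-fold higher in Hs578T (log2 difference 1.42, SE 0.17, limma adjusted p = 0.00141) and CNN1 2.57-fold (1.36, SE 0.14, adjusted p = 0.000737). For both, the FBP1 arrays were further apart than the control arrays, 3.41-fold against 2.12-fold in LMOD1 and 3.03-fold against 2.18-fold in CNN1. CALD1 was 2.23-fold higher (1.16, SE 0.09) and TPM1 2.12-fold (1.08, SE 0.15), and here the control arrays were the further apart, 2.63-fold against 1.70-fold in TPM1. With the 3 genes above, 7 of 10 members were at least 2-fold higher in Hs578T, as were 5.34% of all genes.

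The smallest differences were in MYL9 (1.56-fold, log2 difference 0.64, SE 0.08), ACTG2 (1.29-fold, 0.37, SE 0.06) and MYLK (1.26-fold, 0.33, SE 0.11). The limma adjusted p was 0.00141 for MYL9, 0.0037 for ACTG2 and 0.0494 for MYLK. MYLK was not called without the filter on low values (adjusted p = 0.0545), with arrays centred on their medians (0.0534) or with line as the sole term (0.121), and the last also ended the call of ACTG2 (0.116). Both Hs578T arrays lay above both MDA-MB231 arrays in all 10 members, as they did in 37.2% of all genes. In 8 of 10, TPM1 and CALD1 excepted, the arrays stood in the order MDA-MB231 control, MDA-MB231 FBP1, Hs578T control, Hs578T FBP1 from low to high, an order found in 9.17% of all genes. The order joins the contrast that chose TAGLN with the line difference named at the choice, so nothing is read from these counts.

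**Figure D3:**
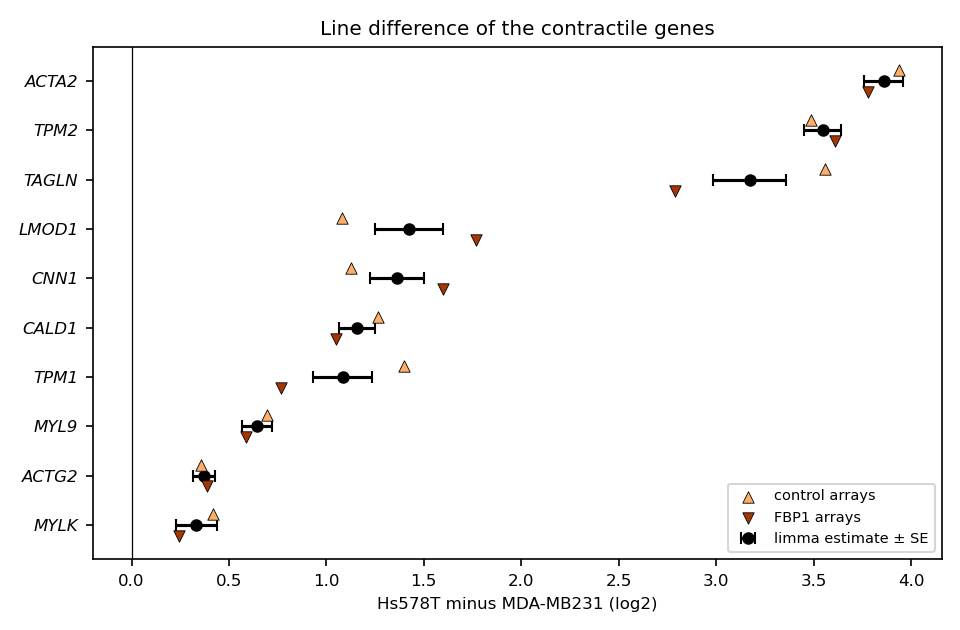
Difference between Hs578T and MDA-MB231 on the log2 scale (horizontal axis) for each contractile gene (vertical axis); circles with bars are the limma estimate and its standard error over 4 arrays, upward triangles the control arrays and downward triangles the FBP1 arrays. All plotted values lie above 0, with limma estimates from 0.33 in MYLK to 3.86 in ACTA2, and the control and FBP1 arrays are furthest apart in TAGLN, LMOD1 and TPM1.

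Paralogs serve related steps, several of them in cells of other kinds. Of 20 paralogs tested, limma called 5 higher in Hs578T (19.0% of all genes), 3 higher in MDA-MB231 (21.8% of all genes) and left 12 uncalled. The median line difference of the paralogs was 0.10 toward Hs578T against 1.26 for the members. TAGLN2, the transgelin gene of most other cells, read 12.02 to 12.23 over the 4 arrays (limma adjusted p = 0.321), and ACTB, cytoplasmic beta actin, 14.13 to 14.22 (adjusted p = 0.466). TAGLN3, the neuronal form, was higher in MDA-MB231 (log2 difference −1.05, SE 0.13, adjusted p = 0.00147), as was CNN3, a calponin of non-muscle cells (−0.54, SE 0.07, adjusted p = 0.00234). TMOD1, a tropomodulin that caps filament ends, was 2.16-fold higher in Hs578T. With FBP1, 0 paralogs were 1.5-fold higher in either line (0.301% of all genes in MDA-MB231 and 1.39% in Hs578T). In Hs578T 1 paralog, TMOD2 (−0.59), was that much lower, as were 1.69% of all genes. The cardiac actin gene ACTC1 differed by 0.54 in MDA-MB231 and 0.26 in Hs578T.

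The regulators of the programme included the gene with the widest line difference of their list. MYOCD encodes myocardin, the SRF coactivator of smooth and cardiac muscle. It read 5.92 in control MDA-MB231, 5.99 with FBP1, 10.24 in control Hs578T and 11.36 in Hs578T with FBP1. Both MDA-MB231 values lay below the filter level of 6.16, so the line difference of 4.84 (SE 0.24, limma adjusted p = 4.09e-05) rests on a dim side. With FBP1, MYOCD was 2.17-fold higher in Hs578T, where 33 of 15946 genes had an increase as large, and 1.04-fold higher in MDA-MB231.

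The partners of myocardin lay above the filter level on all 4 arrays. SRF read 11.84, 11.85, 11.18 and 11.44 from MDA-MB231 control to Hs578T with FBP1 and was higher in MDA-MB231 (log2 difference −0.53, adjusted p = 0.00716), a direction opposite to that of the members. MRTFB, a widely expressed myocardin-related factor, read 9.69 to 10.05 and was not called (adjusted p = 0.187). PRRX1, a mesenchymal homeobox factor, was 10.2-fold higher in Hs578T, as was the Notch ligand gene JAG1 at 1.83-fold, while KLF5 was higher in MDA-MB231 (adjusted p = 0.000976). HEY1, a Notch target, differed by 0.72 with FBP1 in MDA-MB231 and by −0.80 in Hs578T. Of 17 regulators tested, 5 were called higher in Hs578T (19.0% of all genes) and 3 in MDA-MB231 (21.8% of all genes). With FBP1, 1 was at least 1.5-fold higher in MDA-MB231 (HEY1), as were 0.301% of all genes. In Hs578T 1 was that much higher (MYOCD, against 1.39% of all genes) and 1 that much lower (HEY1, against 1.69%). Above control by any amount were 14 of the 17 in the Hs578T pair of arrays (54.9% of all genes) and 7 in the MDA-MB231 pair (48.2%).

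Further smooth muscle genes that differed between the lines were called higher in Hs578T. Of 25 tested, limma called 14 higher in Hs578T (19.0% of all genes) and 0 in MDA-MB231 (21.8% of all genes). The median line difference was 0.57 toward Hs578T against 0.02 over all genes. ITGA8, an integrin chain, was called higher in Hs578T (10.30 and 9.47) and lay below the filter level in MDA-MB231 (5.50 and 5.84). PDE5A, the cyclic GMP phosphodiesterase, was 6.57-fold higher and CACNA1C, the L-type calcium channel, 2.70-fold. The chaperone gene CRYAB was also called higher in Hs578T, with MDA-MB231 values of 5.90 and 6.08, below the filter level. MYH11, the smooth muscle myosin heavy chain that defines the mature cell, read 6.94 to 7.09 over the 4 arrays and was not called (adjusted p = 0.794), nor was the intermediate filament gene DES (7.83 to 8.07, adjusted p = 0.431).

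With FBP1, 4 of these 25 genes were at least 1.5-fold higher in Hs578T (1.39% of all genes were) and 1 was lower (1.69% of all genes). KCNMB1, the calcium-activated potassium channel subunit of smooth muscle, read 7.95 and 8.88 in control and FBP1 Hs578T, a 1.91-fold difference. TGFB1I1, a focal adhesion coactivator, was 1.77-fold higher, IRAG1, a target of cyclic GMP kinase, 1.68-fold and the actinin-binding gene PDLIM3 1.60-fold. ITGA8 was lower (log2 change −0.83). In MDA-MB231 none of those 5 genes differed by 1.5-fold, with KCNMB1 at 0.23, TGFB1I1 at 0.18, IRAG1 at 0.07, PDLIM3 at −0.06 and ITGA8 at 0.34, and PDE5A was lower by 1.5-fold (−0.59). Whether these differences differ between lines could not be tested with 1 array per group.

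**Figure D4:**
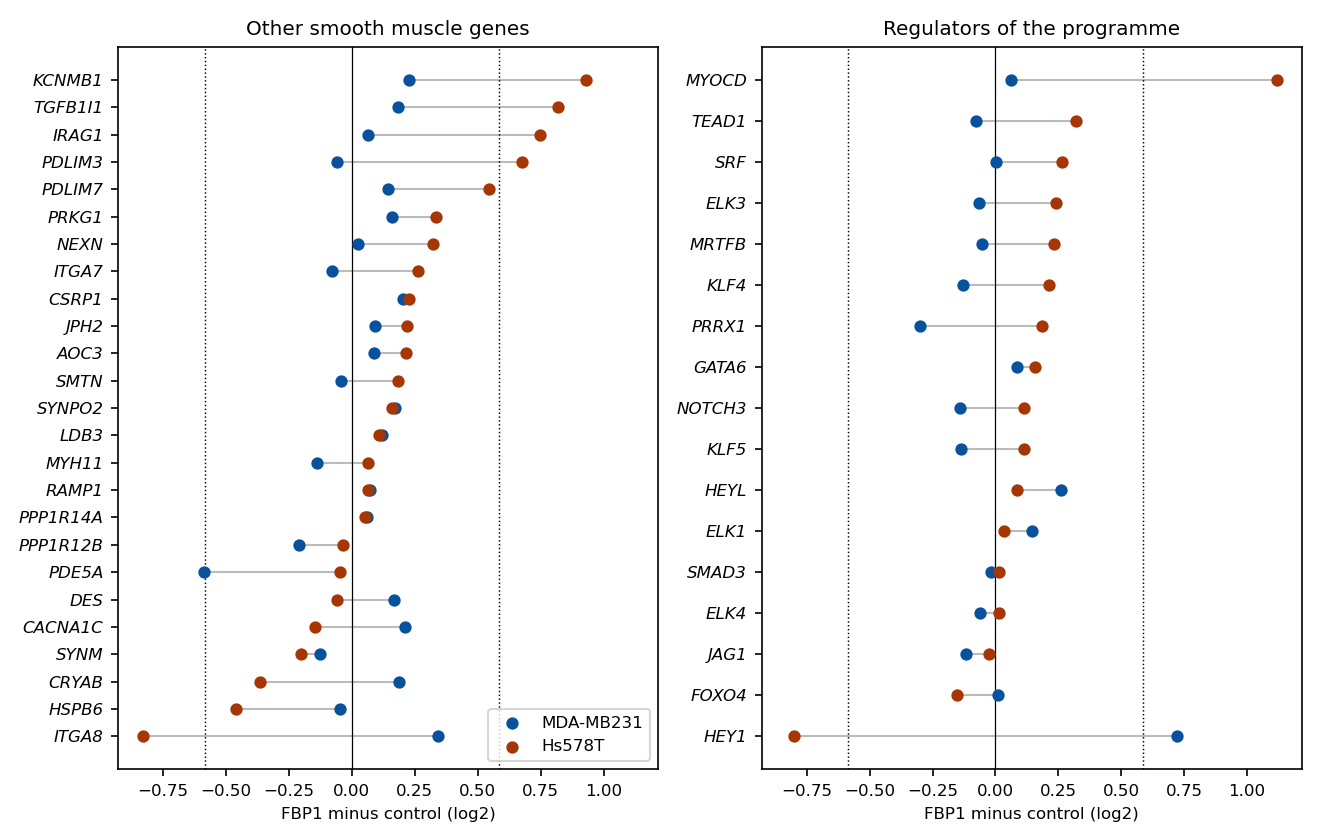
Difference between FBP1 and control on the log2 scale (horizontal axis) for 25 other smooth muscle genes and 17 regulators (vertical axes), with MDA-MB231 in blue and Hs578T in red; dotted lines mark 1.5-fold. In Hs578T, MYOCD, KCNMB1, TGFB1I1, IRAG1 and PDLIM3 lie beyond the upper limit, and in MDA-MB231 HEY1 does.

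Upstream pathways were set beside all genes, of which 0.301% were at least 1.5-fold higher with FBP1 in MDA-MB231 and 0.326% that much lower. In Hs578T these shares were 1.39% and 1.69%. Of 20 stress fibre and focal adhesion genes, 0 differed by 1.5-fold in either line. Above control by any amount were 18 in MDA-MB231 (48.2% of all genes) and 16 in Hs578T (54.9% of all genes). Between the lines 6 were called each way, beside 19.0% of all genes called higher in Hs578T and 21.8% in MDA-MB231. Among them were ITGA5, the fibronectin receptor chain (2.82-fold higher in Hs578T), FHL2 (1.87-fold) and the actin cross-linker PALLD (1.63-fold). MYH10, a non-muscle myosin, was higher in MDA-MB231 (−0.70). Of 21 genes of the RhoA pathway and myosin phosphatase, 1 was at least 1.5-fold higher in MDA-MB231, and 1 was higher and 1 lower in Hs578T. The formin gene DIAPH2 stood at 0.95 with FBP1 in MDA-MB231 and at −0.61 in Hs578T, with DIAPH3 at −0.07 and 0.61. Between the lines 4 of these 21 were called each way, beside the same shares of all genes. RND3 (1.64-fold) and LIMK2 (1.38-fold) were higher in Hs578T and ARHGAP5 was higher in MDA-MB231 (−1.12).

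TGF-beta, an inducer of TAGLN and ACTA2 in many cells, was followed through 21 genes of its pathway. None was 1.5-fold higher with FBP1 in either line, and 2 were that much lower in Hs578T, as were 1.69% of all genes. They were the inhibitory SMAD7 (−0.84, and −0.37 in MDA-MB231) and TGFB3 (−0.68, and −0.15). Between the lines limma called 12 higher in Hs578T (19.0% of all genes) and 5 in MDA-MB231 (21.8% of all genes). The ligand TGFB1 (2.53-fold) and the coreceptor ENG (6.77-fold) were higher in Hs578T, and the receptor TGFBR2 was higher in MDA-MB231 (−1.43).

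Markers of fibroblasts and myofibroblasts differed between the lines in the direction of the members. Of 15, limma called 13 higher in Hs578T (19.0% of all genes) and 2 in MDA-MB231 (21.8% of all genes), with a median line difference of 3.42. The linear values of the 15 summed to 21563 and 20681 in the MDA-MB231 control and FBP1 arrays and to 85809 and 82395 in Hs578T. POSTN was 96.6-fold, LUM 42.5-fold and THY1 39.1-fold higher in Hs578T. The 2 called higher in MDA-MB231 were S100A4 (−2.68) and TNC (−2.24). DCN (5.09 and 5.25) and FAP (4.99 and 5.11) lay below the filter level on both MDA-MB231 arrays. Their part in the line difference of the contractile genes was not tested. With FBP1 in MDA-MB231, 0 of the 15 markers were 1.5-fold higher, a size that 0.301% of all genes reached. LUM (−1.13) and POSTN (−0.78) were at least 1.5-fold lower, as were 0.326% of all genes. In Hs578T FAP was lower (−1.34) and TNC higher (0.68).

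Pericyte and myoepithelial markers were read in the same way. Of all genes, 19.0% were called higher in Hs578T and 21.8% in MDA-MB231, shares that apply to each list here. Of 9 pericyte markers, 6 were called higher in Hs578T and 0 in MDA-MB231. RGS5 (0.71) and ABCC9 (0.67) were at least 1.5-fold higher with FBP1 in Hs578T, beside CNN1 and LMOD1, as were 1.39% of all genes. ABCC9 read 6.03 and 6.08 in control and FBP1 MDA-MB231, and 5.97 and 6.64 in control and FBP1 Hs578T. Only the last of these values lay above the filter level, so the ABCC9 difference rests on a dim control. The linear values of the 9 markers summed to 4307 in the Hs578T control and 4694 with FBP1. Of 7 myoepithelial markers, 4 were called higher in Hs578T (KRT14, MME and the members CNN1 and ACTA2) and 1, CDH3, in MDA-MB231. With FBP1, KRT14 (0.77) was higher in Hs578T, beside CNN1, and MME (0.68) in MDA-MB231. The linear sums of the 7 markers were 1908 and 2131 in MDA-MB231 and 7232 and 8867 in Hs578T. These sums include ACTA2, at log2 values of 12.35 and 12.56 in Hs578T, and CNN1. They therefore largely repeat the line difference of those members. The part of such cells in the values was not tested. Of 8 skeletal and cardiac muscle markers tested, 1, ACTC1, was called between the lines and 0 differed by 1.5-fold with FBP1.

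Luminal epithelial markers ran opposite to the contractile genes. Of 8, limma called 6, all higher in MDA-MB231, as were 21.8% of all genes. Among them were KRT19 (log2 difference −4.05), KRT8 (−3.38), EPCAM (−3.04) and CDH1 (−1.33). Endothelial markers numbered 4 tested, of which 2 were called higher in MDA-MB231 (PECAM1 at −1.61 and KDR at −0.47). Leukocyte markers numbered 3, of which CD14 was called higher in MDA-MB231 (−0.72), and the defining PTPRC lay at 4.52 to 4.96 over the 4 arrays, below the filter level. No gene of these 3 lists differed by 1.5-fold with FBP1 in either line.

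The pattern of TAGLN over the 4 arrays was set against that of every other gene tested. By Euclidean distance between the 4 values after subtracting each gene's mean, the nearest were DZIP1 (0.29), MTAP (0.33), PSG4 (0.35), NCR3LG1 (0.50) and C7 (0.55). MTAP, a methionine salvage gene beside CDKN2A in a region known to be lost in MDA-MB231, read 5.97 in the MDA-MB231 control, 6.54 with FBP1, 9.22 in the Hs578T control and 9.62 with FBP1. DZIP1 read 5.48, 6.28, 9.23 and 9.33. The MDA-MB231 control values of MTAP and DZIP1 lay below the filter level of 6.16, as did both MDA-MB231 values of C7 (4.74 and 5.03). For these genes the likeness to TAGLN rests on a dim side. PSG4 and NCR3LG1 lay above that level on all 4 arrays. Whether RNA of other cells contributed to the MDA-MB231 FBP1 array was not tested.

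Genes that resembled TAGLN in level had a median difference with FBP1 near 0, though some differed by at least 1.5-fold. In the MDA-MB231 control, 59 other genes, the member ACTA2 among them, lay within 1 log2 unit of TAGLN and were at least 8-fold brighter in the Hs578T control. Of these, 26 (44.1%) were above control in the MDA-MB231 FBP1 array. Among the 59, 4 were at least 1.5-fold higher and 2 that much lower, sizes that 0.301% and 0.326% of all genes reached. The median difference of the 59 was −0.05, with a range from −1.13 (LUM) to 0.92 (SEL1L3). Of 5596 genes at that level without such a line difference, 52.1% were above control, with a median of 0.008. Among the 5596, 15 were at least 1.5-fold higher and 18 that much lower. Over all genes tested these shares were 0.301% and 0.326%. The set of 59 genes was chosen after the values had been seen, and TAGLN was chosen for its own difference. The set is therefore a description.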

How the data were processed

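RNA of 4 cell populations was measured on Affymetrix arrays. The authors deposited log2 expression values of 33297 probe sets. The software was Affymetrix Expression Console (version 1.1.2800.28061), per the submitters' processing notes; its normalization settings are not given in the sources used. Deposited values ran from 2.40 to 14.81, hence the log2 scale. If that software equalized the arrays, cell-wide changes in RNA amount would not be seen. Samples were grouped by the source names in the labels.

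A single gene was annotated to 19460 probe sets; the brightest probe set per gene was kept, and genes below the 25th percentile of mean value were left out. Lines were compared with limma 3.58.1 in R 4.3.3 (terms for line and construct, intensity trend, 1 residual and 5.04 prior degrees of freedom, Benjamini-Hochberg over 15946 genes), which was tested on simulated data. Within a line, arrays were subtracted without a test. The cells of a line share their source, so p-values reflect spread between these arrays, mostly as pooled over genes, and not between cultures. Named genes were the 10 members, FBP1, paralogs that passed the filter, list genes 1.5-fold apart in either line or among the 4 largest line differences of a list, and the 5 genes nearest TAGLN; SRF, MRTFB, MYH11, DES, label markers, PTPRC and SEL1L3 were named besides, after their values were seen. Lists covered paralogs, smooth muscle, stress fibre, RhoA, TGF-beta and regulator genes and markers of fibroblasts, pericytes, myoepithelium, muscle, luminal epithelium, endothelium, leukocytes and the basal-like label. The members and lists were chosen with earlier results of these data known. Alternatives covered the filter, quantile normalization, median centring, averaging of probe sets, the variance prior, the model terms and the size limit.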

Additional observations from a re-analysis of the deposited data

Results flagged for a closer look

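Some genes differed from control in opposite directions in the lines; with 1 array per group the difference was not tested. TPM1 stood at 0.33 on the log2 scale in MDA-MB231 and −0.30 in Hs578T. CALD1 stood at 0.13 and −0.09, both small. Among the other genes listed, those past 1.5-fold in both lines and opposite were HEY1 (0.72 and −0.80) and DIAPH2 (0.95 and −0.61).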

How the results depend on the processing

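All 98 recomputed FBP1 differences of the members (filter, normalization, centring, averaging of probe sets) moved by less than 1 SD of the differences over all genes (0.16 log2 in MDA-MB231 and 0.26 in Hs578T). Each member had 1 probe set, so the filter and the averaging could not change these differences. Only quantile normalization and centring could. The number of members at least 1.5-fold higher in Hs578T, 2, was 1 with the filter at the 50th percentile, which leaves out LMOD1, and 0 at 2-fold. The 89 recomputed line differences all kept their direction. Only normalization, centring and the use of control or FBP1 arrays alone could change their size, while the other settings could change only the calls. ACTG2 lost its call under 1 alternative and MYLK under 3, as given above. Over the settings limma called 36.0% to 49.0% of all genes. The line difference of TAGLN was 3.56 in control and 2.79 in FBP1 arrays. Leaving out an array leaves no residual degree of freedom and was not run. The labels give no replicate numbers, so control and FBP1 arrays were paired only by line, through the terms for line and construct in the fit. That fit left 1 residual degree of freedom. With no replicates and no signal over background in the deposited table, dim values such as those of MYOCD and LMOD1 in MDA-MB231 were not shown to lie above background.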
